A study of Homo sapiens with 49 samples.

Results

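The 2 T-47D lists of genomic regions bound by SIN3A, one from cells kept in full media and one from cells kept in charcoal-stripped media, were compared. T-47D is an estrogen receptor-positive human cell line from a ductal carcinoma of the breast. Both libraries were made by chromatin immunoprecipitation and sequencing (ChIP-seq) with the same SIN3A antibody and carry the label 1 hour. Full RPMI contains serum with its hormones, whereas charcoal treatment removes steroid hormones from serum. The paper's hormone-depleted medium was also free of phenol red, so the media differed in more than the serum. The other T-47D libraries used here were from cells given vehicle (DMSO) or 10 nM 17β-estradiol (E2) after hormone depletion. For those libraries the labels give 8 hours for histone marks and 1 hour for all other targets. The Ishikawa SIN3A libraries were from an endometrial carcinoma line in the same 2 media. Each list came from 1 library, except that RNA polymerase II (RNAPII) had 2 for each treatment, so no difference between the media had a replicate check and none was tested. The members were all peaks of the 2 SIN3A lists on chromosomes 1 to 22 and X. They came to 649 regions in full media and 70 in stripped media, or 719 of the 527900 regions in the 45 lists of the series. A full-media region was called shared when a stripped-media region overlapped it by at least 1 bp, and full-only otherwise. This gave 53 shared and 596 full-only regions, so that 8.17% of full-media regions were shared, and it left 14 stripped-media regions that no full-media region overlapped.

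SIN3A is a scaffold protein that does not bind DNA itself. DNA-binding factors recruit it, among them REST, which silences neuronal genes outside the nervous system, and the MAX dimers with MXD proteins, which bind E-boxes. SIN3A in turn carries the histone deacetylases HDAC1 and HDAC2, which remove acetyl groups from histones and so repress transcription, and the complex also sits at many active promoters. The study measured it because promoter occupancy was one of the features used to predict how genes respond to E2.

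The strongest shared regions away from start sites are shown first, since 5 of the 8 shared regions of highest fold enrichment held a complete REST site. The windows are 120 bp long, are read from the plus strand of GRCh37, and carry in capitals both parts of the site with the 2 bases between them. In the SYT7, NPAS4 and VRK3 windows the site reads on the minus strand.
SYT7 intron, chr11:61334773-61334892: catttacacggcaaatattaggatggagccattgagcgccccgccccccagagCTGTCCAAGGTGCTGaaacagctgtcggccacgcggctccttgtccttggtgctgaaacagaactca
NPAS4 intron, chr11:66189130-66189249: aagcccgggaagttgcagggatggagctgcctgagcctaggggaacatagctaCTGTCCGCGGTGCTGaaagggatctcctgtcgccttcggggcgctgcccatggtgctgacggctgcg
Intergenic region on chromosome 14, chr14:106267663-106267782: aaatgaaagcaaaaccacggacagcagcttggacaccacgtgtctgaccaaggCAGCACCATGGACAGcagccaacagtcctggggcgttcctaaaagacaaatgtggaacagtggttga
VRK3 intron, chr19:50490439-50490558: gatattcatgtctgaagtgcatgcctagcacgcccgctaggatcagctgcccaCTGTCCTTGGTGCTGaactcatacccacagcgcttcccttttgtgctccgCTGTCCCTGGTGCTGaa
Region beside LIN28A, chr1:26735137-26735256: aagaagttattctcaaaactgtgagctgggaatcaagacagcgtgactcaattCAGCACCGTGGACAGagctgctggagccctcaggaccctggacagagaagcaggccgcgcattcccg

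Windows of 30 bp are given for start-site regions. The cell cycle homology region (TTTGAA or TTCGAA on either strand) is found in promoters of mitotic genes and is bound by the DREAM and MuvB complexes. It lay within 150 bp of the summit in 5 of the 8 full-only start-site regions of highest fold enrichment. The 5 regions were those of BRD9 and TRIP13, WDR74, CEP55, KIF20B and UTP25. This motif was in 18.8% of all full-only start-site windows of 300 bp and in 16.4% of RefSeq promoters of that length. The capitals mark the motif in 3 of the 5 regions.
BRD9 and TRIP13, chr5:892990-893019: tcgcgcggcagaTTCGAAgctagggcgggg
CEP55, chr10:95256354-95256383: gcagccgcgggaTTCAAActcccggaagcg
KIF20B, chr10:91461365-91461394: ccattgTTTGAATTTGAAaacggtaacatc
The E-box CACGTG, the site of MYC and MAX, was in 3 of the same 8 regions (CCDC86, UTP25 and PUS1). It was also in the RRP12 region, which led the shared start-site regions. Its share was 25.4% over all full-only start-site windows and 7.26% over RefSeq promoters. Capitals mark the E-box.
RRP12, chr10:99161048-99161077: acgctcagaaccCACGTGgataccctgtag
CCDC86, chr11:60609549-60609578: cggcgggggctgCACGTGcgcaggggtgtg
PUS1, chr12:132413788-132413817: tccgccttcgccCACGTGgtccggctccgg

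The full-media list was 9.27 times as long as the stripped-media list on these chromosomes. It covered 133 kb against 6.65 kb. The regions also differed in width, with a median of 181 bp (range 120 to 741) in full media and 79 bp (50 to 236) in stripped media. In stripped media 43 of 70 regions were at most 100 bp wide and 12 had the narrowest width, 50 bp, while in full media none was at most 100 bp wide and 26 had the narrowest width, 120 bp. The median fold enrichment over input, which is the ratio of ChIP to background signal given by the peak caller at the summit, was 10.1 in full media and 9.44 in stripped media. The highest value was 40.7 in full media and 18.7 in stripped media. A further 5 stripped-media regions and no full-media region lay on the mitochondrial chromosome and were left out. Neither list states its read depth, so the part of depth or of fragment length in the difference in number was not tested.

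Of the 70 stripped-media regions, 56 (80.0%, exact 95% interval 68.7 to 88.6) lay at a full-media region. The intervals given here cover counting error only. The shared class held 7 of the 10 full-media regions of highest fold enrichment and 26 of the highest 53. When full-media regions were ranked by fold enrichment and cut into 4 equal groups, 37 of 162 were shared (22.8%) in the highest group (12.03 to 40.7) and 4 of 163 (2.45%) in the lowest (4.53 to 8.63). Accordingly, the median fold enrichment in full media was 15.9 in shared regions (4.73 to 40.7) and 9.89 in full-only regions (4.53 to 26.7). The shared class was separated from the rest by a small margin in places. The smallest overlap was 5 bp, at the start site of the mitotic cyclin gene CCNB1, and the full-only region nearest to a stripped-media region was 7 bp from it, at ATAD2.

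**Figure D1:**
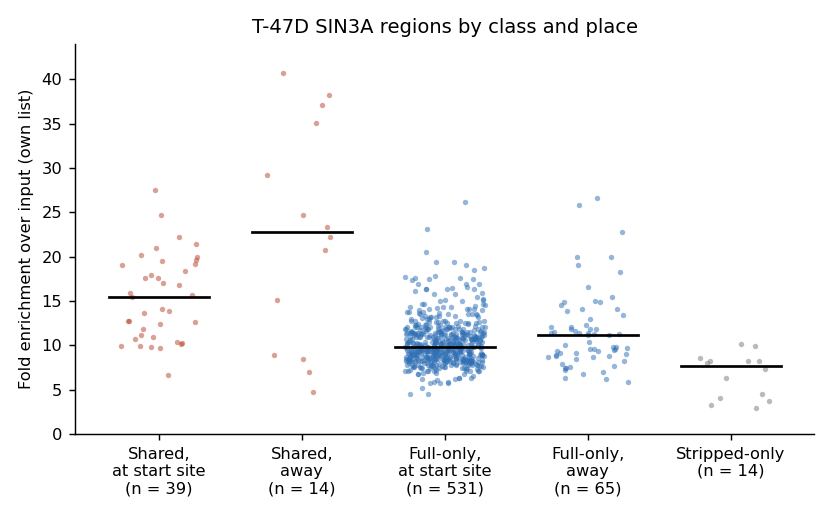
Fold enrichment over input (y axis) of each T-47D SIN3A region, by class and by place at or away from an annotated start site, with a line at the median. Shared regions away from start sites reach 40.7, full-only start-site regions have a median of 9.86, and the 14 stripped-only regions reach 10.1 in their own list.

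At the 53 shared regions the fold enrichment was higher in full media in 43 and lower in 10, with a median ratio of 1.63 (0.420 to 3.74). At SYT7 it was 40.7 in full media and 15.6 in stripped media, at VRK3 35.04 and 11.9, and at RRP12 27.5 and 7.36. The 10 regions that were higher in stripped media fell into 2 kinds. At start sites they were BRCA1 (9.67 in full and 12.1 in stripped media), DLGAP5 (10.4 and 11.9), SCFD2 (9.82 and 12.5), PRR11 (6.68 and 7.71) and a processed pseudogene inside PDE3A (9.97 and 12.4). Away from start sites they were introns of HFM1 (4.73 and 11.3), DLG2 (8.44 and 12.4) and UNC45B (8.94 and 11.2), an intergenic region of chromosome 5 (7.02 and 14.9) and the region beside MIR3687 (15.1 and 18.6). These last 5 held no REST site. Their fold enrichment in Ishikawa full media was also low, from 3.40 to 7.82, against a median of 31.1 over shared regions. The names here were chosen after their values were seen.

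**Figure D2:**
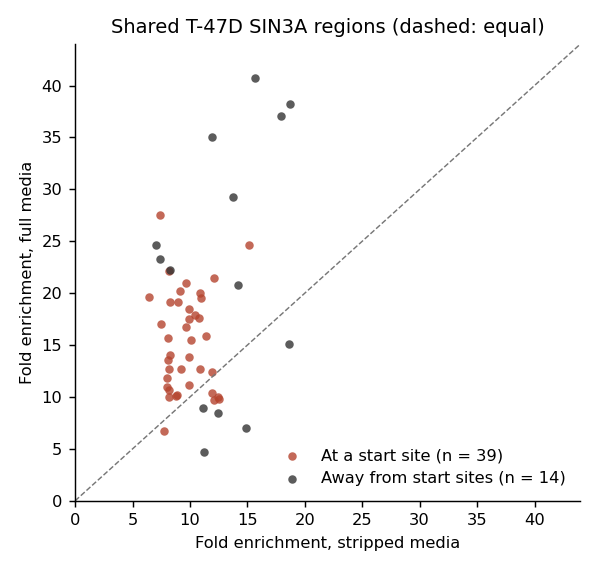
Fold enrichment in full media (y axis) against stripped media (x axis) at the 53 shared regions, coloured by place, with a dashed line of equal values. Stripped-media values lie between 6.44 and 18.7, and 43 points lie above the line.

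The large majority of full-media regions lay within 250 bp of an annotated start site, 39 of 53 shared regions (73.6%, 59.7 to 84.7) and 531 of 596 full-only regions (89.1%, 86.3 to 91.5). The 2 intervals do not overlap. For comparison, 70.6% of the 16458 Ishikawa full-media SIN3A regions and 87.4% of the strongest 649 of them by q-value lay at a start site. Introns held 13.2% of shared and 6.21% of full-only regions, and intergenic sequence held 9.43% and 2.85%. Summits were centred on the start site. Among regions at a protein-coding start site, the summit lay within 100 bp of the nearest one in 31 of 36 shared regions (86.1%) and in 418 of 500 full-only regions (83.6%). Divergent promoters, where protein-coding genes start on both strands, made up 23.7% of the full-only start-site regions (20.2 to 27.6) and 12.8% of the shared ones (4.30 to 27.4). The same count gave 12.03% for Ishikawa full-media SIN3A, 24.2% for its strongest 649 regions and 9.53% for T-47D H3K4me3 regions, which are wider.

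Shared start-site regions were led by RRP12, which takes part in ribosome assembly (27.5), and by a region at MIR3648 on chromosome 21 (24.7), beside which a second lay at MIR3648 and MIR3687 (20.95). Among other high values were MTFR2 (22.2), a mitochondrial protein gene, CDC6 (21.5), which loads the replicative helicase at origins, UNG (20.0), a uracil-DNA glycosylase, the chromatin protein gene HMGB1 (19.7) and KNL1 (19.5), which encodes a kinetochore protein. Lower values included SGO1 (18.4), which protects centromeric cohesion, MCM10 (17.5), CCNB1 (17.0), FANCI (15.5), KIF18B (13.8), the mitotic kinase gene NEK2 (13.6), CDC20 (12.4), DNA2 (11.8), CENPF (11.0) and BRCA1 (9.67). Apart from RRP12, MIR3648, CDC6 and CCNB1, these names were chosen after their values were seen. All of these regions except those on chromosome 21 overlapped H3K4me3, the mark of active promoters, in T-47D. The 2 chromosome 21 regions overlapped 22 and 21 of the 43 other lists, lacked H3K4me3, and had a fold enrichment in Ishikawa full media of only 6.69 and 3.69. The number of lists was within the range of 4 to 27 over the remaining shared start-site regions.

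The full-only start-site regions of highest fold enrichment were those of BRD9 and TRIP13 (26.2), CCDC86 (23.1), WDR74 (20.6), CEP55 (19.4), KIF20B (19.4), UTP25 (19.01), ACTR6 (18.7) and PUS1 (18.5). TRIP13 acts in the spindle checkpoint, CEP55 and KIF20B in cytokinesis, and WDR74 and UTP25 in ribosome assembly, while PUS1 modifies uridines in tRNA. All 8 carried T-47D H3K4me3, JUN and RNAPII. In Ishikawa full media all 8 were also SIN3A regions, with a fold enrichment of 15.7 at PUS1 and 53.4 at UTP25 as the lowest and the highest.

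The 14 shared regions away from start sites had a median fold enrichment of 22.7, against 15.5 in the 39 at start sites. The 4 strongest shared regions of all lay in an intron of SYT7, which encodes a calcium sensor of exocytosis (chr11:61334671-61335044, 40.7), in an intron of NPAS4, a neuronal transcription factor gene (chr11:66189062-66189427, 38.2), in intergenic sequence of chromosome 14 (chr14:106267614-106267832, 37.1) and in an intron of VRK3 (chr19:50490411-50490797, 35.04). They were followed by the region 1946 bp from the start site of LIN28A, an RNA-binding protein gene (29.3), and one in an intron of SHANK2, which encodes a postsynaptic scaffold (24.7). Full-only regions away from start sites were led by an intergenic region of chromosome 16 (chr16:88627238-88627412, 26.7), an intron of the calcium pump gene ATP2B2 (25.8), a region 258 bp from BARHL1, a neuronal homeobox gene (22.7), a region 25851 bp from CYP11B2 (19.9), an intron of ZIM2-AS1 (19.9), an intron of the cadherin gene CDH22 (19.1), an intergenic region of chromosome 9 (18.3) and an exon inside the annotated bodies of HOOK2 and RTBDN, near MAST1 (16.6).

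A complete REST site lay within 150 bp of the summit in 7 of the 14 shared regions away from start sites (50%, 23.04 to 77.0) and in 13 of the 65 full-only ones (20.0%, 11.1 to 31.8). At start sites the numbers were 0 of 39 and 2 of 531. Of the 16458 Ishikawa full-media SIN3A regions 1.14% held one, of the strongest 649 of them 6.01%, and of 35116 RefSeq promoters (GRCh38.p14) of the same 300 bp length 0.0513% did. The 7 shared regions with the site were those of SYT7, NPAS4, chromosome 14, VRK3, LIN28A, NKX1-1 and XKR7, with fold enrichment from 20.8 to 40.7 and a median of 35.04. The other 7 shared regions away from start sites ranged from 4.73 to 24.7, with a median of 8.94. The 2 highest of those, in SHANK2 (24.7) and at MIR7-3HG (23.3), held one part of the site, CAGCACC, without the complete site. Among full-only regions away from start sites the median was 14.9 with the site and 9.92 without it. None of the 20 regions that held the site away from start sites overlapped T-47D H3K4me3 or TAF1, a subunit of the general factor TFIID. In Ishikawa full media 19 of the 20 were SIN3A regions, and their median fold enrichment lay at the 98.5th percentile of that list for the shared ones and at the 99.5th for the full-only ones. The complete site was added to the search after the first values were seen.

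Other motifs were counted in the start-site regions. The cell cycle homology region was in 43.6% of shared start-site windows (27.8 to 60.4), in 18.8% of full-only ones (15.6 to 22.4), in 10.9% of Ishikawa full-media SIN3A windows, in 21.4% of the strongest 649 of these and in 16.4% of RefSeq promoters, and it too was added after the first values were seen. The CCAAT box of NF-Y was in 64.1% of shared (47.2 to 78.8), 36.3% of full-only (32.2 to 40.6), 27.7% of Ishikawa, 42.5% of the strongest Ishikawa and 34.6% of promoter windows. The E-box CACGTG was in 23.1% of shared (11.1 to 39.3) and 25.4% of full-only start-site windows (21.8 to 29.4), against 12.04% in Ishikawa, 23.4% in the strongest Ishikawa windows (20.2 to 26.9) and 7.26% of promoters. For the ETS site CCGGAAG the shares were 17.9% and 28.1%, against 15.4%, 31.4% and 10.3% in the same order. The GC box GGGCGG of SP and KLF factors was in 51.3% and 62.3%, against 57.7%, 59.6% and 45.0%. The full-only shares of the E-box, the cell cycle homology region, the ETS site and the GC box lay inside the exact intervals of the strongest Ishikawa regions, which were taken wherever they lay. No T-47D full-media window held the full estrogen response element, which 0.194% of Ishikawa windows and 0.0570% of promoters held. The median GC content was 63.0% in shared and 64.7% in full-only start-site windows, 56.7% and 58.0% away from start sites, and 58.7% over promoters. The median number of CG pairs per window was 23 in shared and 27 in full-only start-site windows, against 14 over promoters. The E-box, the ETS site and the GC box each contain CG, and the part of composition in their shares was not tested. A match is a description of letters, and all searches covered both strands.

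**Figure D3:**
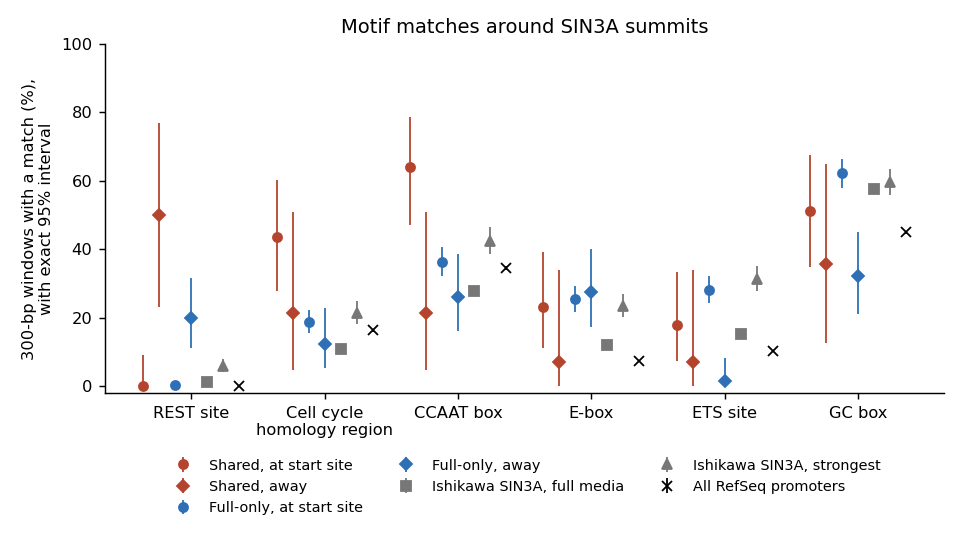
Share of 300-bp windows around SIN3A summits with at least 1 match (y axis, percent, exact 95% intervals) for 6 motifs, by class and place, beside Ishikawa full-media SIN3A regions, the strongest 649 of them and all RefSeq promoters. The REST site is in 50% of shared windows away from start sites and 0.0513% of promoters, and the cell cycle homology region and the CCAAT box are highest in shared start-site windows.

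Gene lists were counted by the number of genes with a full-media region within 1 kb of a start site. Among 20090 protein-coding genes, 735 had one (3.66%), and among the 12479 with T-47D H3K4me3 at a start site, 726 had one (5.82%). Only 47 protein-coding genes had a shared region. Among the lists not picked by symbol, cell cycle regulators stood highest, with 14 of 40 (35%, 20.6 to 51.7), of which 2 had a shared region. They were led by CDC6 (21.5) and CCNB1 (17.0), both shared, and by the mitotic kinase gene PLK1 (16.3) and the cyclin gene CCNA2 (14.1), both full-only. Mitochondrial ribosomal proteins followed with 14 of 78 (17.9%, 10.2 to 28.3), among them MRPL27 (14.4), MRPL57 (11.8), MRPL21 (11.1) and MRPS17 (11.0). Each of these 4 regions also lay at a start site of another protein-coding gene, namely EME1, SKA3, IGHMBP2 and NIPSNAP2 in the same order. The count does not tell which gene of such a pair a region belongs to. Of the 649 strongest Ishikawa full-media regions, the same counts were 14 of 40 and 9 of 78.

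Several lists were near the background of 3.66%. Cytosolic ribosomal proteins had 5 of 85 (5.88%, 1.94 to 13.2), led by RPL35A (11.3), and oxidative phosphorylation subunits had 5 of 87 (5.75%, 1.89 to 12.9), led by NDUFV3 (12.5). The RPL35A region also lay at a start site of IQCG, and the NDUFV3 region at one of WDR4. Of 24 genes of the SIN3 complex, BRMS1 (11.1) and KDM5A (8.85), which encode subunits or partners of the complex, had a region. The KDM5A region also lay at a start site of CCDC77. Among 26 estrogen-induced genes and 15 luminal transcription factors the progesterone receptor gene PGR (7.61) was the only one with a region. The PGR region was full-only, like 596 of all 649 full-media regions. NR1D1 (11.8) was the only one of 15 circadian clock genes, and L1CAM (11.8) the only one of 20 neuronal genes repressed by REST. No region lay within 1 kb of a start site of the 13 MAX network genes, 18 immediate early genes, 64 replication-dependent histone genes or 39 proteasome subunits. KRAB-type zinc finger genes on chromosome 19 had 1 of 249 (0.402%), ZNF331 (10.9), although 223 of them carried T-47D H3K4me3 at a start site. Chromosome 19 as a whole held few regions, 13 in full media beside 1431 H3K4me3 regions at start sites (0.908 per 100). Of 1883 snRNA genes and pseudogenes 2 had a region.

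**Figure D4:**
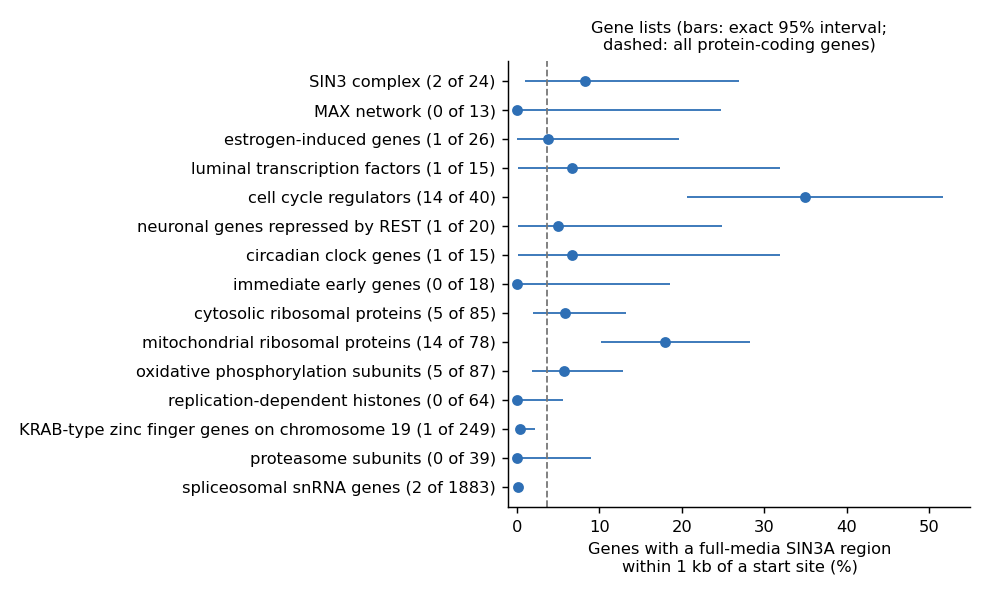
Share of the genes of each list (y axis, with counts) that had a full-media T-47D SIN3A region within 1 kb of a start site (x axis, percent, exact 95% intervals), with the 3.66% over all protein-coding genes dashed. Cell cycle regulators reach 35% and mitochondrial ribosomal proteins 17.9%.

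Gene families picked by their symbols after the values were seen are given as counts, beside the 3.66% over all protein-coding genes. Of the helicase proteins named MCM, 6 of 9 had a full-media region, namely MCM10 (17.5, shared), MCM2 (10.7), MCM5 (9.58), MCM3 (9.38), MCM8 (9.38) and MCM7 (7.72). Of the GINS subunits of the replicative helicase 3 of 4 did, of the replication factor C subunits 3 of 5, and of cyclins A and B 3 of 5 (CCNB1, CCNB2 and CCNA2). Centromere proteins named CENP had 8 of 21, led by CENPP (16.9), CENPW (12.1) and CENPF (11.0). Kinesins had 10 of 42, and 3 of them were shared, KIF18B (13.8), KIF18A (12.7) and KIF20A (9.96), each a mitotic motor. Small subunit processome proteins named UTP had 4 of 9. Nucleolar proteins named NOL, NOP or NOC had 6 of 22, led by NOL8 (16.9) and NOLC1 (14.3). The CENPP and NOL8 values came from the same region, which lay at start sites of both genes and was counted in both families. Genes of cilia also appeared, with 4 of 15 intraflagellar transport proteins (8.61 at IFT80 to 9.91 at IFT122). Of the dynein assembly factors 4 of 10 had a region. The regions of both families were full-only, as were 596 of all 649 full-media regions. By comparison, CFAP genes had 3 of 44. The IFT80 region also lay at a start site of SMC4, and the IFT122 region at one of MBD4. Other regions named here, such as those of MCM2, KIF18A and KIF20A, likewise lay at a start site of another protein-coding gene. The counts do not tell which gene such a region belongs to.

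Overlap with the T-47D lists of other factors and marks was then compared between the classes. As a background, the share of 8510 protein-coding start sites marked by H3K4me3, in windows of 181 bp, is given. It holds start sites only, whereas a share over all regions of a class also counts those away from start sites. The median width was 262 bp in shared and 176 bp in full-only regions. A wider region meets the 1-bp overlap more easily, and the part of width in these shares was not tested. H3K4me3 in DMSO overlapped 67.9% of shared regions (53.7 to 80.1) and 89.9% of full-only regions (87.2 to 92.2). At start sites the shares were 92.3% of 39 and 95.5% of 531, and away from start sites they were 0 of 14 (up to 23.2% at 95% confidence) and 29 of 65 (44.6%, 32.3 to 57.5). Away means more than 250 bp here, so many of the 65 were still near a start site. With 1000 bp on each side, 43 of 53 shared and 563 of 596 full-only regions lay at one. TAF1 in DMSO overlapped 8 of 39 shared start-site regions (20.5%, 9.30 to 36.5) and 231 of 531 full-only ones (43.5%, 39.2 to 47.8), against 34.8% of the background. The retinoic acid receptor RARA in DMSO showed the reverse order, with 15 of 39 (38.5%, 23.4 to 55.4) and 66 of 531 (12.4%, 9.74 to 15.5), against 5.95%. In E2 the order of the classes was the same for both factors over all regions, with TAF1 at 17.0% of shared and 49.3% of full-only regions and RARA at 28.3% and 9.40%.

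MAX and MYC, which had short T-47D lists, had overlapping intervals between the classes in E2. MAX in E2 overlapped 15.1% of shared (6.75 to 27.6) and 22.3% of full-only regions (19.03 to 25.9), against 9.22% of the background, and MYC in E2 overlapped 17.0% and 20.0%, against 9.13%. In DMSO, MAX overlapped 15.1% and 6.54%, against 0.693%. The demethylase LSD1 in E2 overlapped 5 of 53 shared and 6 of 596 full-only regions, and 0 of the 8510 background windows. The 5 were those of HFM1, DLG2 and the 3 on chromosome 21, all of low fold enrichment in Ishikawa full media. JUN in DMSO overlapped 79.2% of shared and 94.97% of full-only regions, but also 86.7% of the background. At start sites, as in the background, the JUN shares were 92.3% and 98.7%. H3K4me1, a mark of enhancers, overlapped 0 shared and 1 full-only region in DMSO. The list labelled H3K27me3, a mark usually found on silent genes, overlapped 60.4% of both classes in DMSO, against 32.1% of the background. In that list 85.7% of regions lay at T-47D H3K4me3, so it did not follow the usual place of its mark, and the E2 list of the same label held 99 regions and overlapped neither class. RNAPII in DMSO overlapped 92.5% and 94.6% with replicate 1, against 93.6% of the background, and 50.9% and 73.0% with replicate 2, against 69.7%. At start sites the RNAPII shares were 94.9% and 99.1% with replicate 1 and 66.7% and 78.7% with replicate 2.

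**Figure D5:**
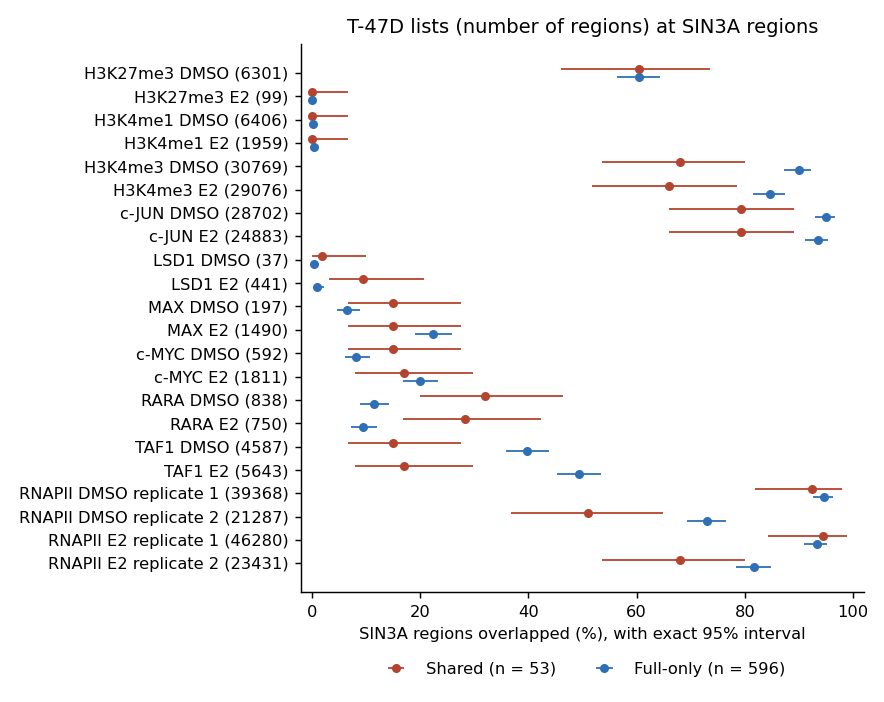
Share of shared (red) and full-only (blue) SIN3A regions overlapped by each other T-47D list (x axis, percent, exact 95% intervals), with the number of regions of each list in brackets. TAF1 and H3K4me3 lie higher in full-only regions and RARA in shared regions, while H3K27me3 in DMSO is at 60.4% in both.

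Nearly all T-47D full-media regions were SIN3A regions in Ishikawa. Ishikawa full media overlapped 52 of 53 shared (98.1%, 89.9 to 100) and 579 of 596 full-only regions (97.1%, 95.5 to 98.3), and Ishikawa stripped media overlapped 53 of 53 and 584 of 596. The Ishikawa full-media list was 25.4 times as long, so the rank of the overlapped regions in it is given as well. The median T-47D shared region lay at the 98.1th percentile of fold enrichment in Ishikawa full media and the median full-only region at the 94.6th. With the Ishikawa full-media list shortened to its 649 strongest regions by q-value, 43 of 53 shared (81.1%, 68.0 to 90.6) and 299 of 596 full-only regions (50.2%, 46.1 to 54.3) remained overlapped. With the stripped-media list shortened alike, 79.2% (65.9 to 89.2) and 46.5% (42.4 to 50.6) were. Shared regions were also the stronger ones in T-47D full media, with a median fold enrichment of 15.9 against 9.89. The part of strength in the difference between the classes was not tested. Some shared regions were weak in Ishikawa. The pseudogene region inside PDE3A was the 1 shared region without an Ishikawa full-media region, and the pair at chromosome 21 start sites had the 6.69 and 3.69 given above. At HFM1, DLG2, UNC45B, the chromosome 5 region and MIR3687, the fold enrichment in Ishikawa full media was 3.44, 3.40, 7.82, 7.45 and 4.395, against a median of 31.1 over shared regions.

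The 14 stripped-only regions were narrow and weak. Their median width was 59 bp, 8 were at most 60 bp wide, and their fold enrichment ranged from 2.91 to 10.1. The 5 highest were at the start site of NOL6, a nucleolar protein gene (10.1), beside GOLIM4 (9.96), in an intron of TUFT1 beside MIR554 (8.53), at MCM7 (8.27) and at XRCC2, a homologous recombination gene (8.27). All 5 were SIN3A regions in Ishikawa full media, from 15.2 at MIR554 to 46.9 at MCM7. ATAD2 and MCM7 also had a full-only region, 7 bp and 696 bp away. By contrast 4 lay side by side in chr1:121484595-121485313 and 1 at chr10:42385178-42385246, with fold enrichments of 2.91 to 4.51. Those 5 overlapped no Ishikawa SIN3A region. They did overlap 9 to 16 of the 43 other lists, including H3K27me3 in E2, the list of 99 regions. The remaining stripped-only regions overlapped 10 to 24 of the 43 lists.

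The regions were spread unevenly over the chromosomes. Per 100 T-47D H3K4me3 regions at start sites there were 5.56 full-media SIN3A regions on chromosome 12, 5.37 on chromosomes 3 and 17 and 5.06 on chromosome 20. There were 0.908 on chromosome 19, 0.864 on chromosome 22, 0.656 on chromosome 18, 0.542 on chromosome 2 and 0.374 on chromosome X. Chromosome 2 held 7 full-media regions and 1291 H3K4me3 start-site regions, while chromosome 3 held 63 and 1173. Among the 649 strongest Ishikawa full-media regions there were 41 on chromosome 2, 38 on chromosome 3 and 42 on chromosome 19. The shared regions were most numerous on chromosomes 1 and 17, with 8 on each.

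The cell line was checked by H3K4me3 in DMSO at start sites of marker genes. All 8 luminal epithelial markers (ESR1, PGR, GATA3, FOXA1, KRT8, KRT18, KRT19 and XBP1) carried it, as did 2 of 5 markers of other cell types, COL1A1 and VIM, while PTPRC, CD3E and PECAM1 did not. Only PGR of these 13 had a full-media SIN3A region.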

How the data were processed

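The deposited files were narrowPeak lists, 1 for each library, made by the authors with Bowtie 1.1.2 (uniquely aligned reads) and MACS2 2.1.0.20140616 against input DNA on hg19. Per the labels and the file contents, the authors' fold enrichment is a ratio of ChIP over background signal at the summit. The deposited lists also give a −log10 p-value and −log10 q-value for each peak, and a deposited score that restates the p-value. The lists held peaks with a −log10 p-value of at least 10. MACS2 reports no peak narrower than its fragment length. The lists state no read depth, so the precision that depth gives is unknown.

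Regions on chromosomes 1 to 22 and X were overlapped in Python 3.11.15 (pandas 2.3.3), with 1 bp as the minimum. Start sites came from GENCODE 44 lifted to GRCh37, with 250 bp on each side for places and 1 kb for genes. Sequence windows of 300 bp around summits were searched for motifs on both strands. Intervals are exact Clopper-Pearson 95% intervals (SciPy 1.17.1). The counting was tested on simulated intervals. With 1 library per medium no test was made.

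The named regions were the 8 of highest fold enrichment in each class (shared, full-only at and away from start sites), the 5 highest stripped-only, and up to 4 genes per list. The members and lists were chosen with earlier results of these data known. Alternatives changed the overlap, the peak thresholds, the contigs, the start sites and the comparison lists.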

Additional observations from a re-analysis of the deposited data

Results flagged for a closer look

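The number of SIN3A regions moved in opposite directions between media in the 2 cell lines. In T-47D there were 649 regions in full media and 70 in stripped media, a log2 ratio of 3.21, whereas in Ishikawa there were 16458 and 20624, a log2 ratio of −0.33. The log2 ratio in T-47D minus that in Ishikawa was 3.54. With 1 library per medium in each line the difference was not tested. The T-47D stripped-media list was 1 of 4 in the series whose narrowest region was 50 or 51 bp wide, beside T-47D H3K27me3 in E2, T-47D LSD1 in DMSO and Ishikawa MYC in DMSO, each with fewer than 100 regions.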

How the results depend on the processing

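No paired analysis was possible because each medium had 1 library and no result came from a test. For the same reason no replicate could be left out, and the lists state no depth. Of 80 values recomputed under 14 settings for 12 results, 49 stayed within 1.5 times the reported count or within its exact interval, and 31 did not. With a reciprocal overlap of at least 50% required at once between the media lists and with start sites, H3K4me3 and Ishikawa SIN3A, which narrow regions inside wider ones cannot meet, 15 full-media regions were shared (2.31%), and 21.4% of stripped-media regions were overlapped. The start-site share was then 20.0% for shared and 17.5% for full-only regions, the H3K4me3 share 6.67% and 2.68%, and the Ishikawa SIN3A share 33.3% and 10.4%, so all of these shares fell. With it required between the media lists alone, the start-site share was 60% for the 15 shared and 88.5% for the 634 full-only regions, and the H3K4me3 share 53.3% and 89.0%. With peaks of a −log10 q-value of at least 10, 39 stripped-media regions and 31 shared regions remained, and 87.1% of full-only regions lay at H3K4me3. With a fold enrichment of at least 10 there were 335 full-media, 28 stripped-media and 18 shared regions (5.37%), and the shares were 84.9% of full-only regions at H3K4me3 and 100% of shared regions at Ishikawa SIN3A. With regions wider than 100 bp there were 27 stripped-media regions, a ratio of 24.0, and 23 shared regions (3.54%), of which 47.8% lay at H3K4me3. A full-media list cut to the length of the stripped-media list overlapped 44.3% of stripped-media regions. Start sites with 1000 bp on each side held 94.5% of full-only regions, those of protein-coding genes 83.9%, H3K4me3 in E2 84.6%, and Ishikawa stripped media 100% of shared regions. Among alternatives chosen after seeing the data, which include the overlap between the media lists alone, the Ishikawa list cut to 649 regions gave 81.1% and 50.2%, and leaving out the chromosome 21 regions moved no share beyond its interval.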
